A study of Mus musculus with 6 samples.

Results

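The growth factor gene Igf2, the genes of the RNA-binding proteins that bind its transcript and the receptors that take it up were followed in hair follicle stem cells with and without Ring1a and Ring1b. The 8 genes are Igf2, Igf2bp1, Igf2bp2, Igf2bp3, Lin28b, Hmga2, Igf1r and Igf2r, taken by symbol from 23377 gene symbols in the count table, where all 8 were found. They were chosen from results of the knockout against wild-type comparison, in which Igf2 and Igf2bp1 were known to be higher. Their values in that comparison are therefore a description, without a test, and nothing is drawn from their number. The RNA-seq compared 2 libraries of the genotype Ring1a/b-/- with 2 of the genotype WT, all from FACS-sorted hair follicle stem cells of C57BL/6 mice, with 3000 cells a sample. Either of Ring1a and Ring1b can serve as the ubiquitin ligase of PRC1, a Polycomb complex that marks histone H2A and keeps developmental genes silent. For the RNA samples the sources used here give no age, no deletion driver, no sort marker and no word on whether each library is its own animal. The p-values below therefore reflect the spread among 4 libraries, and that spread may be technical.

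Igf2 encodes a secreted growth factor that drives growth before birth, is expressed from the paternal allele and is shut down in most tissues after birth. It signals through the tyrosine kinase receptor encoded by Igf1r, and the receptor encoded by Igf2r carries it to the lysosome for breakdown. The Igf2bp proteins are oncofetal RNA-binding proteins that bind and stabilise transcripts, among them Igf2. Lin28b blocks the maturation of let-7 microRNAs, and the Igf2bp genes, Lin28b itself and Hmga2, an architectural chromatin protein of fetal cells, are known targets of let-7. These genes are often described together as a fetal growth programme.

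The let-7 family is shown by its mature sequences because its shared seed, bases 2 to 8 in capitals, is what its targets pair with. Of 10 distinct let-7 sequences from the 5′ arm in RefSeq (GRCm38.p6), 9 carry the seed of let-7a-5p and let-7j differs in it.
let-7a-5p: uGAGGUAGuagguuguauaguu
let-7f-5p: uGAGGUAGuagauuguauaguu
let-7j: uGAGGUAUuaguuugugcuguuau
The libraries were made from polyadenylated RNA and do not measure mature microRNAs. Of 11 let-7 hairpin rows in the count table, 8 had 0 counts in every library, and the highest count was 11, for Mirlet7f-1 in knockout replicate 2.

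The knockout libraries held 4844381 and 7740945 counts in total, the wild-type libraries 2785843 and 3056593. Levels below are CPM, counts scaled to the size of the library after TMM (trimmed mean of M values). Of 15 markers of hair follicle stem cells, 13 had a count in every library and their summed level was 2089 to 2637 CPM. Lgr5 stood at 251 and 240 CPM in knockout libraries and 140 and 194 CPM in wild-type libraries, while Krt24, a bulge keratin, had 1 count in all. Single markers went different ways: the keratin gene Krt15 stood at 303 and 250 CPM against 417 and 362 CPM, Nfatc1 at 38.8 and 34 CPM against 0 and 2.34 CPM, and Cd34 at 15.3 and 2.61 CPM against 24.3 and 20.4 CPM. Runx1 was the marker of this list that passed edgeR's test, 5.5-fold higher in the knockout (edgeR adjusted p = 0.0431). Of the targeted genes, Ring1 (Ring1a) was at 15.5 and 18.4 CPM in knockout and 31.9 and 29.4 CPM in wild-type libraries, and Rnf2 (Ring1b) at 151 and 153 CPM against 144 and 87.8 CPM. Neither passed edgeR's test (adjusted p = 0.551 and 0.532). Such whole-gene counts check no genotype label, as no source used here names the deleted exons. A pair of libraries stood apart: summed skeletal muscle markers were 632 CPM in knockout replicate 1 and 1581 CPM in wild-type replicate 2, against 76.9 and 13.7 CPM in the others.

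Igf2, the ligand, was near silent in the wild type and well counted in the knockout. The wild-type libraries held 7 and 13 Igf2 counts, or 2.66 and 4.34 CPM, and the knockout libraries 697 and 1502 counts, or 141 and 187 CPM. Both knockout libraries lay far above both wild-type libraries, and each of the 4 knockout to wild-type ratios lay between 32.4 and 70.3. The mean was 46.8-fold higher, 164 ± 32.7 against 3.5 ± 1.19 CPM (SD, n = 2 each), a log2 fold change of 5.53 ± 0.39 (SE). Among 13134 genes tested, 171 had a higher log2 fold change.

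The plot of levels by library sets the 8 genes side by side, each on its own scale.

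**Figure D1:**
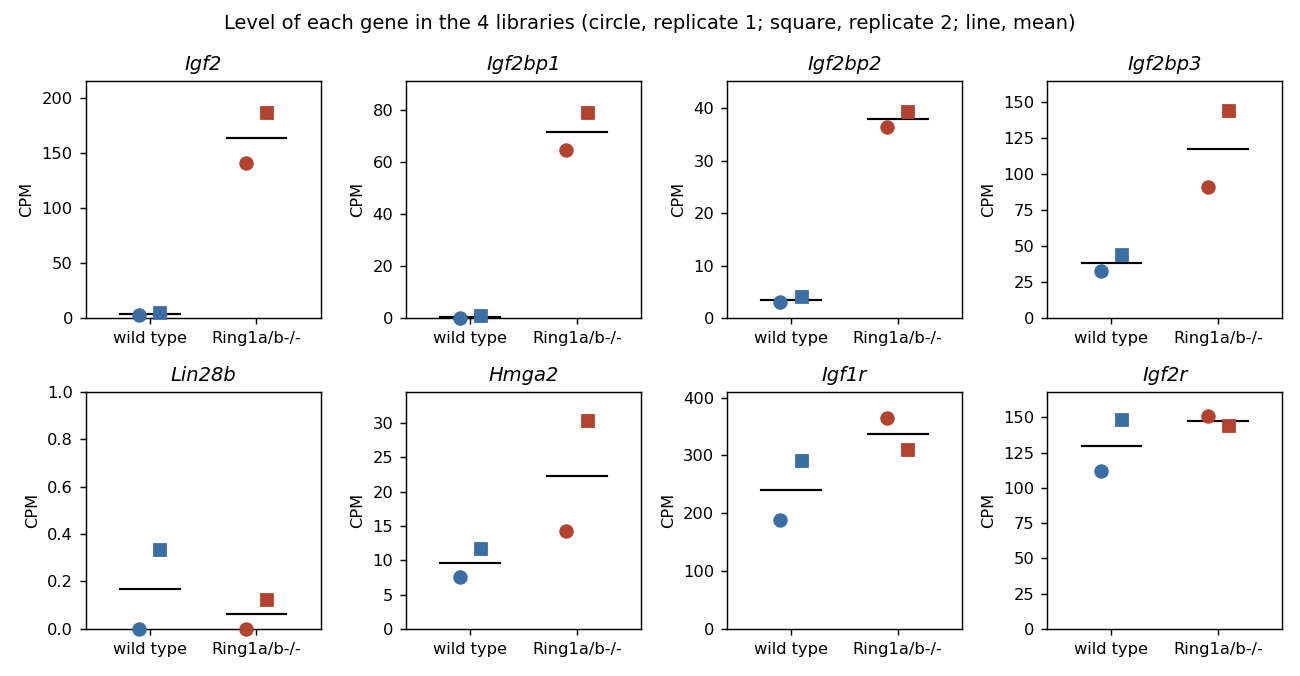
Level of each gene (y axis, CPM from 0) in wild-type and Ring1a/b-/- libraries (x axis), with a circle for replicate 1, a square for replicate 2 and a line for the mean of 2. Igf2 and Igf2bp1 sit near 0 in the wild type and at 141 to 187 and 64.4 to 78.8 CPM in the knockout, while the Igf2r libraries overlap.

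The receptors differed little beside the ligand. Igf1r, the signalling receptor, stood at 364 and 310 CPM in knockout libraries and 189 and 291 CPM in wild-type libraries, so that its log2 fold change was 0.49 ± 0.23 (SE). Its groups did not overlap, but the lowest knockout library was only 1.07 times the highest wild-type library. Igf2r, the clearance receptor, stood at 151 and 144 CPM in knockout libraries and 112 and 148 CPM in wild-type libraries, and its groups overlapped. The log2 fold change of Igf2r was 0.17 ± 0.22 (SE), and it was -0.01 without wild-type replicate 1. The ratio of Igf2 to Igf2r counts was 0.934 and 1.3 in the knockout against 0.0236 and 0.0293 in the wild-type libraries, and that of Igf2 to Igf1r was 0.386 and 0.604 against 0.014 and 0.0149. These ratios describe counts, not how many molecules of each there were, and effects of gene length and abundance can differ between libraries. A trend on both, with gene length as genomic span, was taken out. The log2 fold changes were then 5.18 for Igf2, 0.43 for Igf1r and 0.13 for Igf2r, against 5.53, 0.49 and 0.17. Igf2r overlaps Airn, an imprinted antisense transcript, which stood at 58.8 and 69 CPM in knockout libraries and 53.5 and 54.1 CPM in wild-type libraries (edgeR adjusted p = 0.799). SMART-seq2 libraries do not mark strand, so reads of an overlapping pair cannot be told apart.

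The Igf2bp genes were all higher in both knockout libraries, by sizes that differed between the paralogues. Igf2bp1, which in adult tissues is mostly silent, had 0 and 2 counts in the wild type and 319 and 633 in the knockout, or 0 and 0.667 against 64.4 and 78.8 CPM. With so few wild-type counts the ratio of 206 has a counting interval of 57 to 1707 (exact, 95%), and it was 110 (30.3 to 908) without wild-type replicate 1. Without wild-type replicate 2 no wild-type count is left, and the knockout was at least 64.4-fold higher with 3 counts in the group as the floor. Igf2bp2, the member best known from adult tissues, had 8 and 12 wild-type counts and 181 and 316 knockout counts. Its levels of 36.5 and 39.3 CPM in knockout libraries and 3.04 and 4 CPM in wild-type libraries gave a mean 10.8-fold higher and a log2 fold change of 3.42 ± 0.73 (SE). For Igf2bp2 the second knockout library was 1.08 times the first, and the second wild-type library 1.32 times the first. Igf2bp3, a fetal and tumour-associated paralogue, was the one already well counted in the wild type, at 32.7 and 43.7 CPM. It stood at 91.1 and 144 CPM in the knockout, 3.08-fold higher in the mean, with a log2 fold change of 1.62 ± 0.34 (SE).

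The makeup of the family therefore differed between genotypes. Igf2bp3 gave 91.5% and 90.3% of the counts of the 3 genes in the wild-type libraries and 47.4% and 55% in the knockout libraries. Igf2bp1 went from 0% and 1.38% to 33.5% and 30%, and Igf2bp2 from 8.51% and 8.28% to 19% and 15%. Together the 3 genes had 94 and 145 counts (35.7 and 48.4 CPM) in the wild type and 951 and 2109 counts (192 and 263 CPM) in the knockout. Longer transcripts give more counts, so the shares are compared between libraries and not between genes. Such effects can also differ between libraries. A trend on abundance and gene length was taken out, with length as genomic span and not transcript length. The log2 fold changes were then 6.73 for Igf2bp1, 2.55 for Igf2bp2 and 1.34 for Igf2bp3, against 7.56, 3.42 and 1.62.

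**Figure D2:**
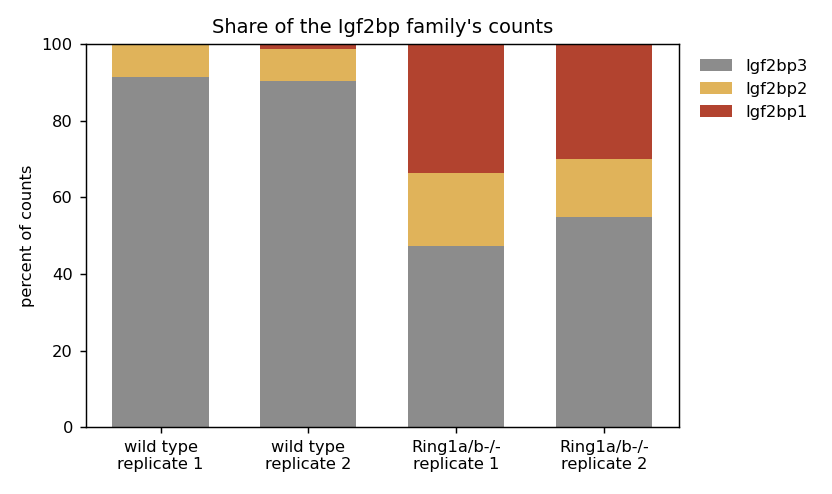
Share of the counts of Igf2bp1, Igf2bp2 and Igf2bp3 (y axis, percent, stacked to 100) in each of the 4 libraries (x axis). Igf2bp3 makes up 90.3% to 91.5% in the wild type and 47.4% to 55% in the knockout, where Igf2bp1 gives 30% to 33.5%.

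Lin28b, which holds back let-7 maturation in fetal and stem cells, was not detected beyond single counts in either genotype. The knockout libraries held 0 and 1 counts of Lin28b and the wild-type libraries 0 and 1, and 3 counts would correspond to 0.373 to 1.14 CPM depending on the library. No fold was computed and Lin28b was not tested. Its paralogue Lin28a had 0 counts in all 4 libraries. As PCR can copy 1 molecule many times, these limits and the intervals reflect counting error alone. Hmga2 stood at 14.3 and 30.3 CPM in knockout libraries and 7.59 and 11.7 CPM in wild-type libraries. Its groups did not overlap, but the second knockout library was 2.11 times the first, and the log2 fold change of 1.21 ± 0.82 carried a wide SE. Without knockout replicate 2 the mean of Hmga2 was 1.49-fold higher in place of 2.31-fold, and the log2 fold change was 0.39 once a trend with length and abundance of genes was taken out. A pseudogene, Hmga2-ps1, can share reads with Hmga2 and had 37 and 7 knockout and 11 and 2 wild-type counts.

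Of the 7 genes tested, both knockout libraries lay above both wild-type libraries in 6, where 24.8% of all genes tested did so. At an edgeR adjusted p under 0.05, 2 of the 7, Igf2 and Igf2bp1, were among the 8 genes called, 0.0609% of those tested (0.0533% higher and 0.00761% lower). The authors' deposited table marked 4 of the 8 genes higher, Igf2 and the 3 Igf2bp genes, and 7.35% of its genes with an adjusted p (8.64% counting those marked lower). Because the genes were chosen from this comparison, these counts are given only as a description. The plot of fold changes gives each gene's value with all libraries and under 13 alternatives.

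**Figure D3:**
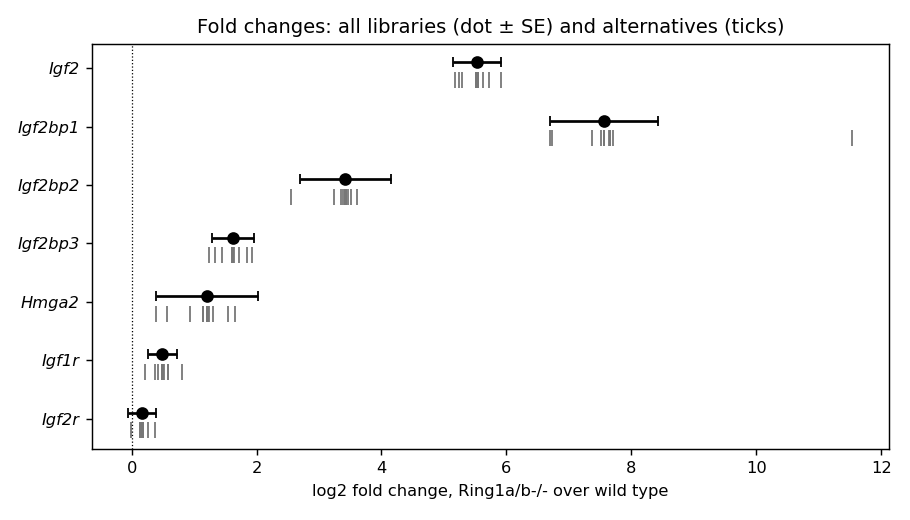
Log2 fold change of Ring1a/b-/- over wild type (x axis) for the 7 genes tested (y axis), as a dot with its SE for all libraries and ticks for the 13 alternatives. Igf2 stays between 5.18 and 5.92, Hmga2 runs from 0.39 to 1.65, and the tick of Igf2bp1 at 11.54 comes from leaving 0 wild-type counts.

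Other genes around the same pathway were read from 8 lists with 158 genes in the count table, of which 138 were tested. None passed edgeR's test at an adjusted p under 0.05. Without adjustment 18 were higher and 8 lower at p under 0.05, 18.8% of the genes tested against 16.6% of all genes (8.47% higher and 8.16% lower). DESeq2 called 12 higher and 9 lower, where it called 12.4% of all genes with an adjusted p, and limma-voom called 0. The authors' deposited table marked 14 higher and 1 lower. Of its genes with an adjusted p it marked 7.35% higher and 8.64% either way. Its marks follow another cut than DESeq2 here, as they cover 1253 genes against 1792. The median log2 fold change over the lists was 0.07, and over all genes tested it was 0.03. From each list up to 2 genes of highest mean CPM are named. Other genes named from the lists were chosen after their values were seen.

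The extracellular part of the pathway, ligands, binding proteins and proteases, had 10 of 16 genes tested, with 0 higher and 1 lower at an unadjusted p under 0.05 and a median log2 fold change of 0.84. Igfbp4 and Igfbp3, carriers of IGF in the extracellular space, stood at 213 ± 9.54 against 183 ± 49 CPM and at 191 ± 31.9 against 135 ± 51.5 CPM (edgeR adjusted p = 0.723 and 0.429). Igf1, the other IGF ligand, stood at 34.1 and 9.83 CPM in knockout libraries and 6.45 and 9.68 CPM in wild-type libraries (edgeR adjusted p = 0.499), so it was high in knockout replicate 1 alone. That library also had the highest summed leukocyte markers, 1311 CPM, and their part in this value was not tested. The insulin genes Ins1 and Ins2 had 0 counts. Stc1, an inhibitor of the protease that frees IGF from its carriers, was the gene with the unadjusted p under 0.05. It stood at 63.6 and 90 CPM in knockout libraries and 152 and 155 CPM in wild-type libraries (edgeR adjusted p = 0.149).

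Inside the cell, the signalling list had 36 of 38 genes tested, 5 higher and 0 lower without adjustment, and a median log2 fold change of -0.04. Nras, which encodes a GTPase, stood at 362 ± 0.901 against 457 ± 126 CPM (edgeR adjusted p = 0.499). The kinase genes Akt1 and Akt2, downstream of PI3K, had log2 fold changes of -0.17 and -0.23. Grb10, an imprinted adaptor that restrains IGF and insulin receptors, stood at 22.4 and 65.6 CPM in knockout libraries and 0 and 7.01 CPM in wild-type libraries (edgeR adjusted p = 0.209).

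Genes of let-7 maturation, 17 of 19 tested, had a median log2 fold change of 0, with 3 higher and 2 lower without adjustment. Ddx5 and Ddx17, helicases of microRNA processing, stood at 575 ± 87.4 against 939 ± 111 CPM and at 296 ± 37.8 against 301 ± 7.43 CPM (edgeR adjusted p = 0.149 and 0.976). Zcchc11, a uridylyltransferase that acts with Lin28 proteins on let-7 precursors, stood at 155 ± 3.4 against 77.1 ± 38.2 CPM (edgeR adjusted p = 0.188). Ago4, an Argonaute protein, stood at 16 and 32.2 CPM in knockout libraries and 1.9 and 2.34 CPM in wild-type libraries (edgeR adjusted p = 0.154). Other known let-7 targets, 24 of 28 tested, had a median log2 fold change of 0.04, with 3 higher and 2 lower without adjustment. Ccnd2, a G1 cyclin, stood at 699 ± 96.6 against 919 ± 93.1 CPM (edgeR adjusted p = 0.329), and Nras is given above. Of the 24 tested targets, 1 had a log2 fold change above 2, Igdcc4, at 25.6 and 17.6 CPM in knockout libraries and 0.759 and 2.34 CPM in wild-type libraries (edgeR adjusted p = 0.158).

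Fetal growth genes other than the 8, of which 16 of 18 were tested, had a median log2 fold change of 0.65, with 5 higher and 0 lower without adjustment. Hmgn5 and Plagl2, the most abundant, stood at 121 ± 7.83 against 148 ± 39.5 CPM and at 129 ± 35.6 against 103 ± 12 CPM (edgeR adjusted p = 0.644 and 0.633). Dlk1, an imprinted paternally expressed Notch-like protein of fetal tissues, had 4 and 0 counts in the wild type and 366 and 485 in the knockout, or 1.52 and 0 against 73.9 and 60.4 CPM (edgeR adjusted p = 0.0798). It was called when either wild-type library was left out. Gpc3, a glypican of fetal growth control, stood at 56.9 and 72.8 CPM against 2.66 and 13 CPM (edgeR adjusted p = 0.147). Peg10, another paternally expressed gene, had 0 and 1 wild-type counts and stood at 17 and 20.3 CPM in the knockout (edgeR adjusted p = 0.147), a ratio of 107 (19 to 4247 by counting error). Sizes like these were not general in the list. Peg3 stood at 30.1 and 29 CPM against 20.9 and 19.4 CPM, and Mest at 0.404 and 5.85 CPM against 0 and 8.34 CPM (edgeR adjusted p = 0.731 and 0.958).

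**Figure D4:**
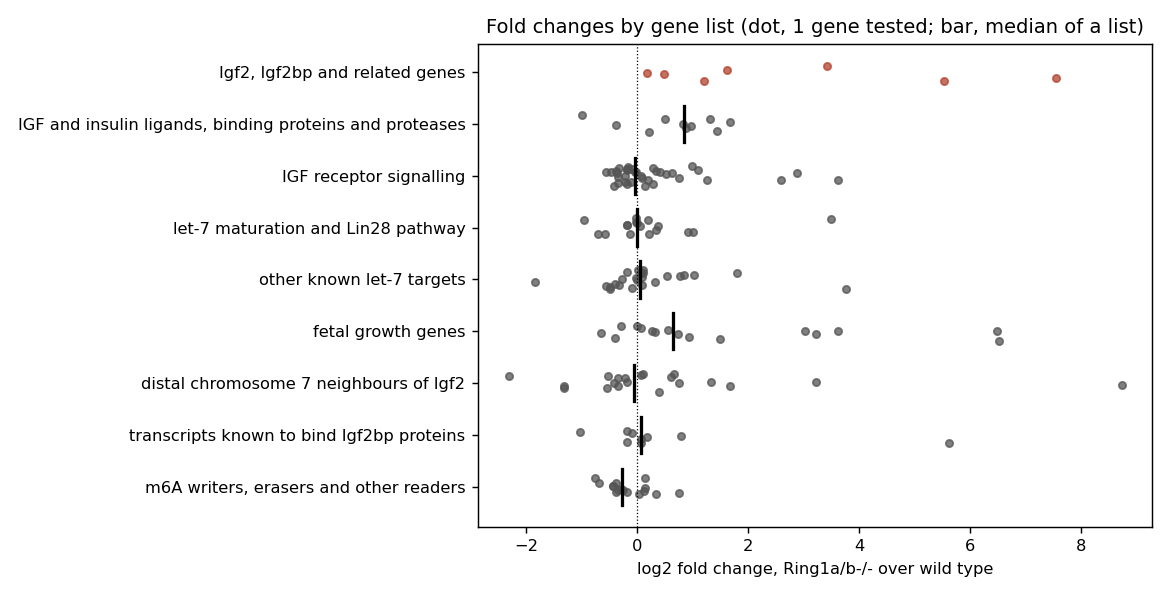
Log2 fold change of Ring1a/b-/- over wild type (x axis) for every gene tested in 8 pathway lists and for the 7 genes described above (y axis), 1 dot a gene, with a bar at each list's median. List medians lie between -0.28 and 0.84, and the dot at 8.74 is Igf2os, whose fitted value depends on 0 wild-type counts.

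On distal chromosome 7, Igf2 lies in an imprinted cluster with H19, a maternally expressed non-coding RNA that competes for the same enhancers. Its libraries did not part by genotype. It stood at 50.7 and 12.3 CPM in knockout libraries and 3.42 and 56.4 CPM in wild-type libraries, overlapping groups at 0.07 ± 1.08 as log2 fold change and its SE (edgeR adjusted p = 0.99). The libraries ranked alike by H19 and by summed skeletal muscle markers, 632 and 76.9 CPM in knockout libraries and 13.7 and 1581 CPM in wild-type libraries. Without knockout replicate 1 or 2 the ratio of H19 means, knockout to wild type, was 0.412 or 1.69. Without wild-type replicate 1 or 2 it was 0.559 or 9.22. Igf2 stood at 4.34 CPM in wild-type replicate 2 and 187 CPM in knockout replicate 2, and the part of muscle RNA in the levels of H19 and Igf2 was not tested. Igf2os, a transcript antisense to Igf2, had 43 and 114 counts in the knockout and 0 in both wild-type libraries, at least 22.7-fold higher (edgeR adjusted p = 0.149). The bound was 12.1-fold without wild-type replicate 1 and 10.6-fold without wild-type replicate 2. Igf2 had 16.2 and 13.2 counts for each of Igf2os in the knockout, and these reads cannot be told from those of Igf2.

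Of 25 listed neighbours on distal chromosome 7, 20 were tested, with 2 higher and 0 lower without adjustment and a median log2 fold change of -0.05, also with Igf2os at its bound. Kcnq1ot1, the long imprinted antisense transcript of the next domain, stood at 1478 ± 200 against 1123 ± 306 CPM, and Ctsd, a lysosomal protease gene, at 228 ± 32.4 against 258 ± 58.7 CPM (edgeR adjusted p = 0.422 and 0.789). Cdkn1c, an imprinted inhibitor of the cell cycle, stood at 49.9 and 36.5 CPM in knockout libraries and 0.759 and 8.34 CPM in wild-type libraries (edgeR adjusted p = 0.167).

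Transcripts known to bind Igf2bp proteins, 9 of 10 tested, had a median log2 fold change of 0.06, with 1 higher and 1 lower without adjustment. Actb, the actin transcript that Igf2bp1 is known to localise in the cytoplasm, stood at 426 and 319 CPM in knockout libraries and 840 and 683 CPM in wild-type libraries (edgeR adjusted p = 0.129). Mapt, the neuronal microtubule protein tau, had 0 and 2 wild-type counts and stood at 11.7 and 25.1 CPM in the knockout (edgeR adjusted p = 0.149). Myc and Cd44, both stabilised by Igf2bp proteins in other cells, had log2 fold changes of -0.09 and 0.06. The Igf2bp proteins also read m6A, a methyl mark on RNA, and the writers, erasers and other readers of that mark had a median log2 fold change of -0.28 over 16 genes, with 1 higher and 2 lower without adjustment. Of these, Hnrnpa2b1 stood at 325 ± 57.5 against 523 ± 12.3 CPM and Ythdf2 at 226 ± 7.05 against 308 ± 72.5 CPM (edgeR adjusted p = 0.151 and 0.334).

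Markers of other cells that can express Igf2 or its partners are given beside these values. In sorted bulk samples, fewer cells of a type and less RNA per cell cannot be told apart. Fibroblast and dermal papilla markers, 12 of 16 with a count in every library, summed to 678 and 495 CPM in knockout libraries and 851 and 1106 CPM in wild-type libraries. Over the 15 of these markers tested the median was 0.19 on the log2 scale, so its sum and its median differed in direction. Dcn, at 272 and 159 CPM against 593 and 430 CPM, made up much of the sum, and the collagen genes Col1a1 and Col1a2 were high in wild-type replicate 2, at 113 and 139 CPM. Both knockout libraries lay above both wild-type libraries for Pdgfra, Pdgfrb, Alpl, Twist1 and Crabp1, where 24.8% of all genes tested did so. Both lay below for Dcn and for Lum, which was not tested, and the groups overlapped for the rest of the list. Twist1 and Crabp1 had 0 wild-type counts and stood at 9.29 and 5.98 CPM and at 34.7 and 27.6 CPM in the knockout. Endothelial and mural markers, 6 of 14 with a count in every library, summed to 308 and 265 CPM against 305 and 377 CPM, with Emcn at 0. Over the 6 tested the median log2 fold change was -1.25, and single markers differed. Acta2 stood at 9.89 and 46.7 CPM against 158 and 138 CPM, and Mcam at 96.9 and 68 CPM against 14.4 and 9.68 CPM. Pecam1 and Cdh5 were counted nearly only in wild-type replicate 2, at 11.7 and 9.01 CPM. Leukocyte markers, 15 of 17 with a count in every library and Cd207 at 0, summed to 1311 and 514 CPM in knockout and 271 and 221 CPM in wild-type libraries. Schwann and nerve markers, 6 of 8 with a count in every library and Sox10 at 0, summed to 207 and 204 CPM against 79.4 and 186 CPM. Melanocyte markers, 4 of 8 with a count in every library, summed to 187 and 133 CPM against 194 and 197 CPM, and adipocyte markers to between 15.6 and 111 CPM with Adipoq and Cidec at 0. Leukocyte and Schwann sums were thus higher in both knockout libraries, with median log2 fold changes of 1.91 and 0.34, and fibroblast and melanocyte sums were lower, with medians of 0.19 and -0.22. Of the knockout pair, replicate 1 had the higher leukocyte sum. In that library Igf2, Igf2bp1, Igf2bp2, Igf2bp3 and Hmga2 were lower than in replicate 2, and Igf1r and Igf2r were higher. They are 1 pair of libraries, and the part of these other cells' RNA in the differences above was not tested.

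**Figure D5:**
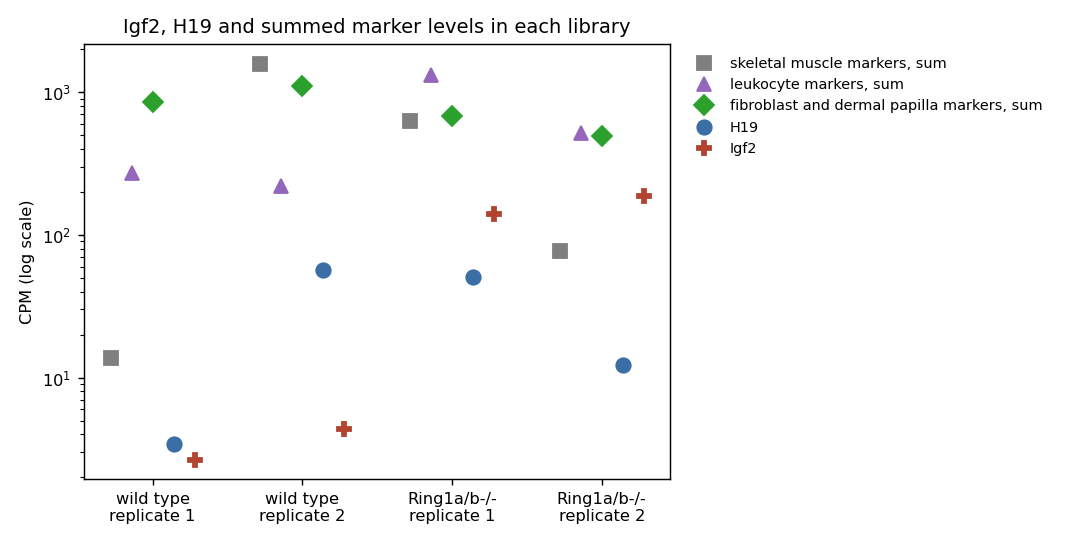
Levels of Igf2 and H19 and summed levels of 3 marker lists (y axis, CPM, log scale) in each library (x axis), with 1 symbol shape for each quantity, set side by side within a library. H19 is high where muscle markers are high, in wild-type replicate 2 and knockout replicate 1, and Igf2 is high in both knockout libraries.

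The genes whose pattern over the 4 libraries was most like that of Igf2 were found by the root mean square distance between log2(CPM + 1) profiles, each centred on its mean. Among the 5 nearest of 12212 named genes were Slc30a3 (distance 0.08), Tenm3 (0.1), Cilp2 (0.22) and Hoxd10 (0.31), against a median distance of 2.62. Igf2bp1 ranked next, in place 6, at a distance of 0.31. Igf2bp2, Igf2bp3 and Hmga2 were in places 153, 824 and 1412, and Igf1r and Igf2r in places 2745 and 4442. Among the 5 nearest to Igf2bp1 were Hoxd11 (0.3), Igf2 (0.31), Tenm3 (0.36) and Trank1 (0.36). Each of these had at most 1 wild-type count in a library other than Igf2 itself, and each ranking rests on 4 values a gene. Adding 1 CPM shrinks the folds of such genes, so a small distance does not mean an equal fold or level. The knockout mean was 38.8 CPM for Slc30a3 and 164 CPM for Igf2.

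Promoter windows from 250 bases before to 50 after a start site were found in RefSeq (GRCm38.p6) for 7 of the 8 genes, and the count of CpG, the letters CG, was taken in each as a feature the choice of genes did not use. The median of 32851 windows was 7 CpG. Igf1r had 48 and Igf2bp2 47, numbers reached by 1.22% and 1.44% of all windows. Igf2r had 34 (reached by 7.73%), Igf2bp3 had 25 (18.4%), Hmga2 had 12 (39.6%) and Lin28b had 8 (48.6%). The 4 windows of Igf2 had 2, 14, 24 and 7 CpG, and counts over whole genes do not tell which start was used. Igf1r and Igf2bp2, alike in CpG number, stood at log2 fold changes of 0.49 and 3.42. They are 1 pair, and no relation between CpG number and fold was tested. The CpG number says nothing on Ring1b binding, and the deposited Ring1b peaks, on mm9, were not joined to these windows. Windows are printed 5′ to 3′ on the strand of the gene with CpG in capitals. They are the CpG-richest start of Igf2 (24 CpG), Igf2bp2 (47 CpG) and Lin28b (8 CpG, near the median of all windows).
Igf2, window 3, chr7:142658755-142659054, minus strand: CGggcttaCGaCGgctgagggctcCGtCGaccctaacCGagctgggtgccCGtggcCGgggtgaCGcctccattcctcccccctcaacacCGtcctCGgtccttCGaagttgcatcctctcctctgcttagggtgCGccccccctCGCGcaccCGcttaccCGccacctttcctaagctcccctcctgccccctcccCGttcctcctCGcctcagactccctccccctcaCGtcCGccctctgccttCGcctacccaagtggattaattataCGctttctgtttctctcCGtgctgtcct
Igf2bp2, chr16:22163250-22163549, minus strand: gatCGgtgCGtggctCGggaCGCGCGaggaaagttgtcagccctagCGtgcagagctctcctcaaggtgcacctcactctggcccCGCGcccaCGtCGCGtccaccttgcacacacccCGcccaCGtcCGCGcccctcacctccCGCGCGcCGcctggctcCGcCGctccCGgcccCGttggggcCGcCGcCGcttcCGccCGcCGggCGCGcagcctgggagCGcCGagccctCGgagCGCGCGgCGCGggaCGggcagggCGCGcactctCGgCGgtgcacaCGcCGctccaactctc
Lin28b, chr10:45470152-45470451, minus strand: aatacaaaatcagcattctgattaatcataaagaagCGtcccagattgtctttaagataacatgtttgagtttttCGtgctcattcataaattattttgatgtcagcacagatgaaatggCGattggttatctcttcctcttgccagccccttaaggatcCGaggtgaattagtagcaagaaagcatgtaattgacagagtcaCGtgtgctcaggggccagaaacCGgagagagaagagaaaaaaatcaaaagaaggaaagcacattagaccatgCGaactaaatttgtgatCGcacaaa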

How the data were processed

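Raw counts for 23377 gene symbols, as deposited by the authors, were used for 4 RNA-seq libraries made with SMART-seq2, a full-length method, per the labels. Alignment to mm9 and counting are named only as tools (TopHat2 2.1.1 and HTSeq 0.7.2, per the submitters' processing notes), with their settings and annotation not given in the sources used here. From the authors' deposited comparison table, whose headers name a mean signal, a log2 fold change and its SE, a test score and p-values, the authors' marks of higher and lower genes were copied.

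The main test was the quasi-likelihood test of edgeR 4.0.16 under R 4.3.3 (filterByExpr, TMM, robust, genotype only, Benjamini-Hochberg over 13134 genes), and DESeq2 1.42.0 and limma 3.58.1 were alternatives. Scripts were tested on simulated data. SE is the log2 fold change over the root of F. Against 0 counts a fold uses a floor of 3 counts. Between 1 and 3 counts an exact 95% counting interval is given. With 2 libraries a group, an exact permutation test cannot go below p = 0.333. Gene lengths, sequences and neighbours came from RefSeq tables (GRCm38.p6), and 99.5% of tested genes had a length. Length is the genomic span of a gene, so the trend removal did not correct for transcript length.

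The genes and lists were chosen with earlier results of these data known. By rule, the text names the 8 genes, Ring1 and Rnf2, up to 4 called genes of each list or else its 2 of highest mean CPM, the 5 genes most like Igf2 and Igf2bp1 (predicted transcripts passed over), and the nearest protein-coding neighbours. A few genes that the rule takes are not reported here.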

Additional observations from a re-analysis of the deposited data

How the results depend on the processing

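Against the 8 genes called by edgeR, DESeq2 called 1792, no low-count filter 802, a filter of 1 CPM in 2 libraries 1, the removal of a trend on gene length and abundance 1 and limma-voom 0 (1956 at an unadjusted p under 0.05). Leaving out 1 library gave 0 (without knockout replicate 2, 1098 unadjusted) to 60 (without wild-type replicate 2), with 1 without knockout replicate 1 and 32 without wild-type replicate 1. A group left with 1 library was assumed to vary like the other. For the pathway lists, with 0 calls, DESeq2 gave 21, no filter 17 and leaving out 1 library 0 to 3, where Dlk1 was called without wild-type replicate 1 and Dlk1, Gpc3 and Actb without wild-type replicate 2. With the replicate number as a block edgeR called 416 genes and 9 in the lists, but same-numbered libraries share only a number: their deviations correlated at -0.14. A crossed block, chosen after seeing the data, called 8 and 0. Igf2 was the gene called under both the 1 CPM filter and the trend removal. Library totals without TMM moved the median log2 fold change of all genes from 0.034 to 0.134. Over 13 alternatives Igf2 ranged from 5.18 to 5.92, Igf2bp2 from 2.55 to 3.61, Igf2bp3 from 1.24 to 1.92, Hmga2 from 0.39 to 1.65 and Igf1r from 0.22 to 0.81. Igf2bp1 ranged from 6.7 to 11.54, the latter with 0 wild-type counts. Igf2r turned to -0.01 without wild-type replicate 1 (0.37 without wild-type replicate 2), and the cause was not tested. Depth limits Lin28b and the wild-type level of Igf2bp1.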

Other observations

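The nearest protein-coding genes on either side of each of the 8 genes, by the order of the RefSeq annotation, give their surroundings. Of these 16 neighbours 11 were tested, and 0 passed edgeR's test at an adjusted p under 0.05 (1 higher and 2 lower at an unadjusted p under 0.05). Both knockout libraries lay above both wild-type libraries in 4 and below in 3, and the groups overlapped in 4. Of all genes tested, 47.0% had groups that did not overlap in either direction, and 24.8% had both knockout libraries above. Beside Igf2, the ribosomal protein gene Mrpl23 stood at 85 and 66.1 CPM in knockout libraries and 104 and 111 CPM in wild-type libraries, and Ins2 had 0 counts. Beside Igf2bp1, B4galnt2 stood at 10.7 and 16.7 CPM against 12.2 and 14.3 CPM, and Gip, which encodes a gut hormone, had 0 counts. Beside Igf2bp2, the splicing factor gene Tra2b stood at 230 ± 15.6 against 329 ± 9.91 CPM and Senp2 at 138 ± 43.8 against 140 ± 37.7 CPM. Beside Igf2bp3, the splicing factor gene Tra2a, a paralogue of Tra2b, stood at 86.8 ± 19.4 against 84.7 ± 24.2 CPM and Malsu1 at 49.4 ± 2.09 against 39 ± 1.8 CPM. Beside the near-silent Lin28b, Bves stood at 3.84 and 18.4 CPM in knockout libraries and 0 and 1 CPM in wild-type libraries (edgeR adjusted p = 0.239), and Hace1 at 58.6 ± 2.89 against 41.9 ± 3.57 CPM. The fold sizes of Igf2, Igf2bp1 and Igf2bp2 were thus not shared by the tested protein-coding genes next to them. Beside Igf2 and Igf2bp1 only Mrpl23 and B4galnt2 could be tested, and no difference between neighbours was tested. Igf2os, antisense to Igf2 and not among these neighbours, was at least 22.7-fold higher, with reads that cannot be told from those of Igf2.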
